A study of Mus musculus with 12 samples.

Results

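Ptprc encodes CD45, the receptor-type protein tyrosine phosphatase carried by nearly all nucleated blood cells, and Ptprcap encodes a small transmembrane protein of lymphocytes that associates with it. Both genes were followed by ribosome profiling in a mouse B cell lymphoma line, as 2 of the 22520 gene IDs counted. They were picked out by ID, ENSMUSG00000045826.8 for Ptprcap and ENSMUSG00000026395.16 for Ptprc. Ptprcap had been noticed in these same libraries for its low footprints in mutant cells, and Ptprc is the gene of its partner. The values by which they were chosen, mutants against WT, are therefore given as a description and without a test.

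CD45 removes an inhibitory phosphate from the tail of Src-family kinases such as Lyn in B cells, and so sets how readily these kinases respond to the antigen receptor. The Ptprcap protein, also named LPAP or CD45-AP, binds CD45 through its transmembrane region, and in lymphocytes without CD45 it is known to be unstable. What Ptprcap itself does is less settled.

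The line, 19PP, was derived from a Rag2-/-γC-/- mouse that had received bone marrow with Cγ1-Cre and Myc/P110*flSTOP. Cγ1-Cre is active in B cells that transcribe the Cγ1 locus. All groups share this background, and the labels' growth protocol describes a subline, 19DN, from which the GFP and hCD2 reporters had been removed with Flp. The groups were S38D mitotic, S38A mitotic, WT mitotic, S38D asynchronous, S38A asynchronous and WT asynchronous cells, with 2 libraries each and 12 in all. S38D and S38A are substitutions at serine 38 of RPL12 (uL11), a protein of the large ribosomal subunit. Aspartate resembles a phosphorylated serine in charge, and alanine cannot be phosphorylated. Mitotic cells had been held for 8 hr in 100 ng/mL nocodazole, which blocks spindle assembly, and then released for 10 min in fresh medium, so cell cycle state and drug treatment cannot be told apart. The labels state neither how many clones stand for a genotype nor whether replicates were grown as separate cultures. The p-values therefore reflect only library-to-library spread, which may be technical and is estimated largely from other genes.

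Libraries held 258354 to 505500 reads in coding sequence, and 6692 genes had enough reads to be tested. Levels are CPM, coding reads scaled to a common total by TMM. Such a level depends both on how much mRNA is present and on how often it is translated. It is not a translation efficiency, since no RNA-seq was used here. In a bulk culture fewer cells with a footprint and fewer footprints per cell cannot be told apart. The deposited tables do not pair gene IDs with symbols, so markers of B cells or of other cell types were not looked up. The labelled cell type was therefore not checked. Ptprc was read in all 12 libraries, but nearly all nucleated blood cells carry CD45. Ptprcap, a gene of lymphocytes, had 0 to 2 reads in each of the 8 mutant libraries, the pattern it was chosen for. Neither gene therefore checks the cell type.

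Ptprcap lies on chromosome 19 at 4154646 to 4156710 (GRCm38.p6, RefSeq). It overlaps 0 other annotated genes in that table, with Coro1b ending 610 bases below its start and Rps6kb2 beginning 81 bases above its end. Ptprc spans chromosome 1 from 138062859 to 138175756 and also overlaps 0 other annotated genes. Both genes passed the filter on low counts. For Ptprcap, 0 of 8 mutant libraries exceeded the filter level of 28.2 CPM, against 4 of 4 WT libraries, so it passed only through WT cells. Ptprc exceeded it in all 12.

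Ptprcap footprints were almost missing from both mutants in both states. The S38D mitotic libraries had 0 and 1 reads of Ptprcap, and the S38A mitotic libraries had 1 and 0, against 28 and 35 in WT mitotic libraries. In asynchronous cells, S38D libraries had 2 and 1 reads and S38A libraries 0 and 0, against 22 and 23 in WT libraries. Every mutant library lay below every WT library, with no overlap in any of the 4 comparisons. Among all genes tested, the libraries did not overlap and were lower in the mutant for 21.8% (S38D mitotic), 26.7% (S38A mitotic), 18.7% (S38D asynchronous) and 23.2% (S38A asynchronous). These shares stand as background to values that chose the gene.

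In CPM, Ptprcap averaged 1.75 ± 2.48 in S38D mitotic, 1.17 ± 1.65 in S38A mitotic and 92.3 ± 2.27 in WT mitotic libraries (SD, n = 2 each). In asynchronous cells the means were 3.16 ± 1.34 in S38D, 0 in both S38A libraries and 81.2 ± 6.87 in WT (SD, n = 2 each). With so few reads, the order of S38D and S38A cannot be read from these values.

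**Figure D1:**
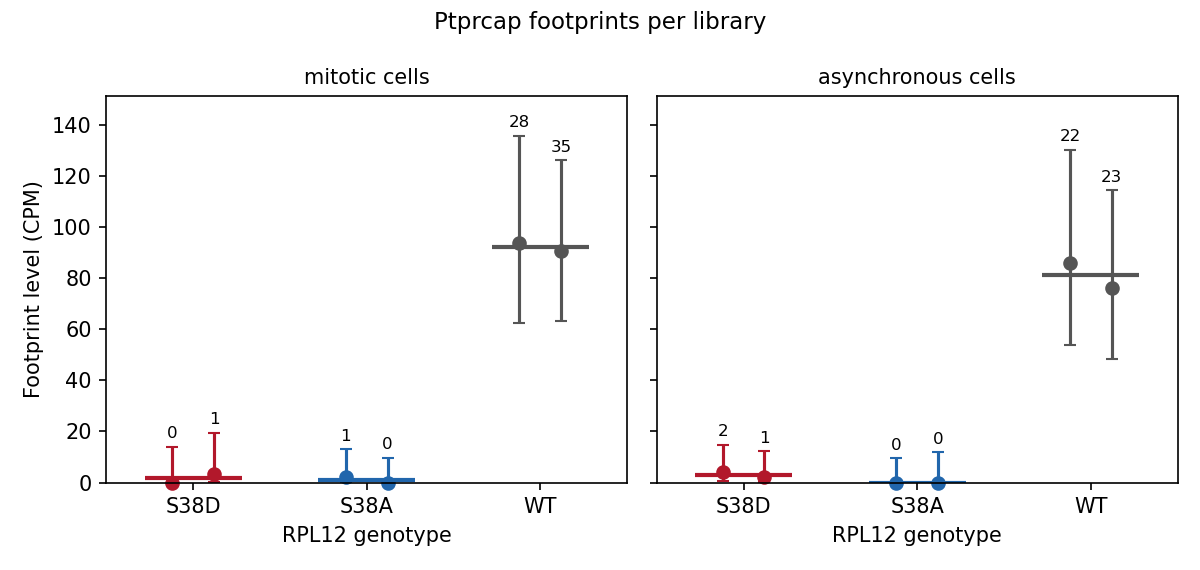
Ptprcap footprint level in CPM (y axis) in each library, by RPL12 genotype (x axis) and state (panels). Points are libraries with their read number above, bars are exact 95% Poisson intervals for counting error only, and horizontal lines are group means; the 8 mutant libraries hold 0 to 2 reads and the 4 WT libraries 22 to 35.

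At the WT rate of the same state, each mutant library would have held between 24.9 and 40.5 reads of Ptprcap, and the 8 together 262.8, where 5 were counted. The S38D level was 1.92% of WT in mitotic cells, with a 95% counting interval of 0.0479 to 11.1%, and 3.85% in asynchronous cells (0.766 to 12.0%). The S38A level was 1.33% of WT in mitotic cells, with an interval of 0.0332 to 7.69%. In asynchronous S38A cells, with 0 reads, it was at most 5.19% of WT, taking 3 reads over both libraries as the floor, which is at least 19.3-fold lower. This limit depends on the pooled depth: it was 11.6% without S38A asynchronous replicate 1 and 9.41% without replicate 2. These ratios use coding read totals without TMM scaling. The intervals are exact binomial and cover counting error only. The limit for asynchronous S38A cells is not such an interval. It takes the WT rate as exact, so it cannot be set against the upper ends of the intervals. The reads do not show that Ptprcap is absent from mutant cells: 4 of 8 mutant libraries held at least 1 read.

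The same ratio that chose Ptprcap is given here beside that of other genes, as a restatement of the choice and not as support for it. Of 4908 genes with at least 50 reads over the 4 WT libraries, 1, Ptprcap, had a mean CPM over the 8 mutant libraries below 10% of its WT mean. Its ratio was 1.76%, the next lowest gene was at 12.9%, and the median of these genes was 1.01-fold. In these ratios CPM used read totals over all gene IDs, and elsewhere totals over the genes tested. For Ptprc the ratio was 1.24-fold, above that of 84.4% of these genes. The libraries with 0 to 2 reads of Ptprcap thus held 319 to 781 reads of Ptprc. Genes with fewer than 50 WT reads were left out of this ranking, so it does not show that Ptprcap alone was nearly missing. One gene left out, ENSMUSG00000036067.12, had 0 to 3 reads in each mutant library against 5 to 12 in each WT library.

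**Figure D2:**
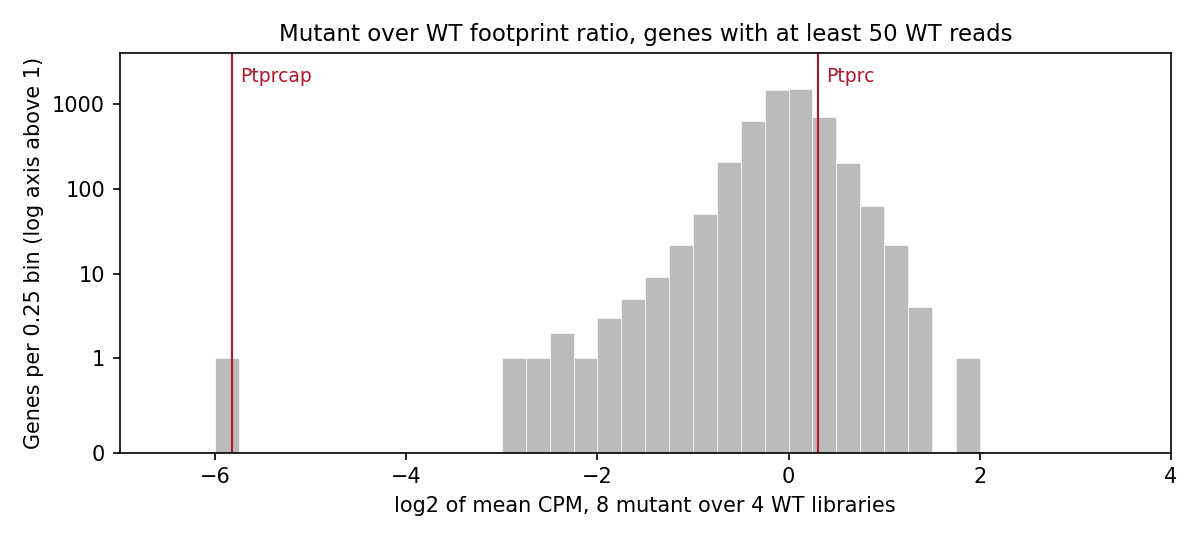
Distribution of the log2 ratio of mean CPM in the 8 mutant libraries over the 4 WT libraries (x axis), as numbers of genes per bin (y axis, logarithmic above 1), for the 4908 genes with at least 50 WT reads. CPM here uses read totals over all gene IDs. Vertical lines mark Ptprcap, at 1.76% of WT and lowest of these genes, and Ptprc, at 1.24-fold and inside the main body.

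Likeness to Ptprcap was measured as Pearson's r of log2 CPM over the 12 libraries, which fall into a mutant and a WT cluster. It describes mostly that split, by which Ptprcap was chosen, and the libraries share their depth and scaling across genes. Of 6691 other genes, the most alike was ENSMUSG00000029279.15 (r = 0.972), and 0.822% had r above 0.8. This gene, which the files do not name, had 11.4 and 14.0 CPM in S38D mitotic and 14.0 and 15.9 CPM in S38A mitotic libraries, against 43.6 and 38.9 CPM in WT mitotic libraries. It was lower in mutants but well above the Ptprcap level relative to WT. Further down the same list, ENSMUSG00000036067.12 (r = 0.923) came closer to Ptprcap. This gene too exceeded the filter level of 28.2 CPM only in WT libraries, so it entered the list only through WT cells. It had 0 and 0 reads in S38A asynchronous and 1 and 1 in S38D asynchronous libraries, against 8 and 7 in WT asynchronous libraries. The genes ranked between them held at least 10 reads in each mutant library.

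Within WT cells, the only ones with more than a few reads, Ptprcap was compared between states, a contrast that the choice of the gene did not use. The WT mitotic libraries had 93.9 and 90.7 CPM, against 86.0 and 76.3 CPM in WT asynchronous libraries. The 2 states did not overlap, as was so in the higher direction for 29% of all genes tested. The log2 difference was 0.19 ± 0.32 (SE, 95% interval -0.45 to 0.83) and did not pass (adjusted p = 0.748, edgeR). A change of Ptprcap with state was therefore not detectable at this depth, and the interval leaves room for changes up to 1.77-fold higher or to 0.732-fold.

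Ptprc footprints were abundant in all 12 libraries, from 825 to 1730 CPM with a median of 1297. Their mean was lower in mitotic than in asynchronous cells of each genotype. Averaged over genotypes, Ptprc fell by 0.46 on the log2 scale in mitotic cells (SE 0.07, 95% interval -0.61 to -0.31, adjusted p = 4.40e-07, edgeR quasi-likelihood test), a level of 0.726-fold. The direction was the same in 3 of 3 genotypes. In this comparison 20.8% of all genes tested passed the threshold in the lower direction, and 20.1% had a difference below that of Ptprc, so its fall was one among many. Exchanging the state labels inside each genotype in an exact permutation test (two-sided) gave p = 0.00926, the smallest that this design allows.

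By genotype, Ptprc had 932 and 845 CPM in S38A mitotic libraries, against 1429 and 1362 CPM in S38A asynchronous libraries. It fell by 0.65 on the log2 scale there (SE 0.13, adjusted p = 9.96e-05, edgeR), where 9.59% of genes were called lower. WT mitotic libraries had 825 and 938 CPM, against 1271 and 1188 CPM in WT asynchronous libraries, and in WT cells Ptprc fell by 0.47 (SE 0.13, adjusted p = 0.00665, edgeR), where 9.26% were called lower. Without WT mitotic replicate 1 the change in WT cells was -0.39 and no longer passed (adjusted p = 0.116, edgeR). In these 2 genotypes each mitotic library lay below each asynchronous one, which held for 29.8% of all genes in S38A and 27.5% in WT cells.

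S38D mitotic libraries had 1335 and 1322 CPM of Ptprc, against 1457 and 1730 CPM in S38D asynchronous libraries. Here too the states did not overlap, as for 30.3% of all genes in that direction. The log2 difference was -0.26 ± 0.13 (SE, 95% interval -0.51 to -0.01) and did not pass after adjustment (adjusted p = 0.137, edgeR, 10.9% of genes called lower). Without S38D asynchronous replicate 1, the lower of the asynchronous libraries, it was -0.39 and passed (adjusted p = 0.0460, edgeR).

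Whether the mitotic change of Ptprc differed between genotypes was tested directly, and no difference passed. The change in S38D minus that in S38A was 0.39 ± 0.18 (log2, SE, 95% interval 0.03 to 0.75, adjusted p = 0.41, edgeR). S38D minus WT gave 0.21 ± 0.18 (adjusted p = 0.90), and S38A minus WT gave -0.18 ± 0.18 (adjusted p = 0.826). These tests called few genes, 0.239%, 0.0598% and 0.448% of those tested. The smaller difference in S38D cells is therefore not shown to be unlike that in the other genotypes.

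Measures of read alignment also moved with state. Reads outside counted features made up 25.6 to 34.6% of uniquely aligned reads in mitotic libraries and 18.0 to 25.8% in asynchronous libraries. Alignments that were not unique made up 65.8 to 73.0% of all alignments in mitotic libraries and 62.3 to 68.3% in asynchronous libraries, and within each genotype the mitotic libraries were higher without overlap. The part of both measures in the mitotic fall of Ptprc was not tested.

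**Figure D3:**
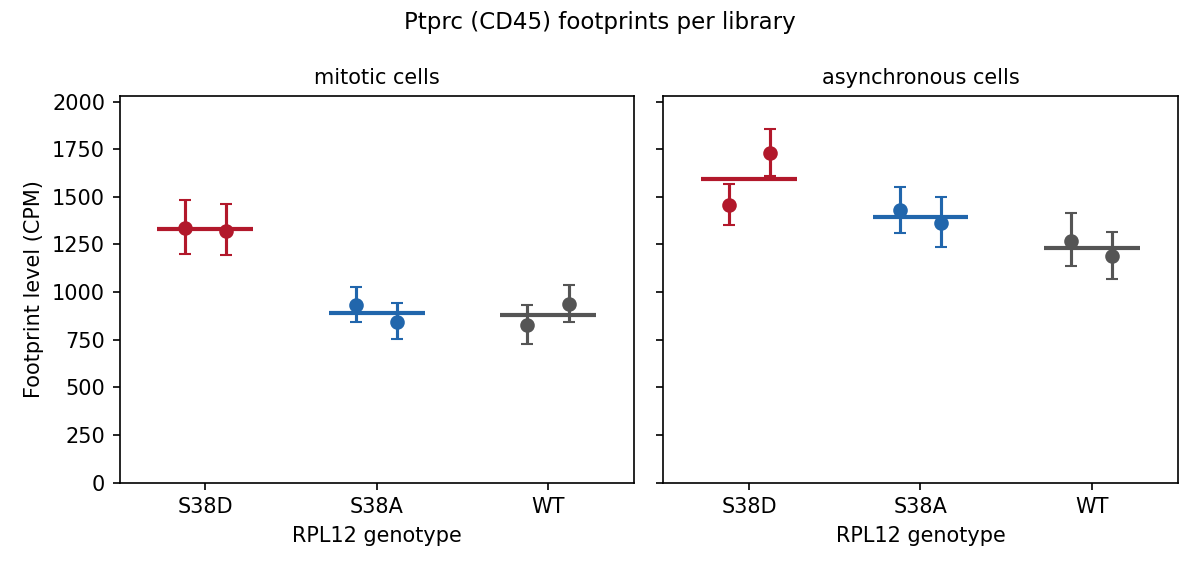
Ptprc footprint level in CPM (y axis, from 0) in each library, by RPL12 genotype (x axis) and state (panels). Points are libraries, bars are exact 95% Poisson intervals for counting error only, and lines are group means; S38D mitotic libraries, at 1322 and 1335 CPM, lie above the other 4 mitotic libraries, at 825 to 938 CPM.

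Between the mutants, Ptprc was higher in S38D than in S38A mitotic cells. It averaged 1329 ± 9.19 CPM in S38D and 888 ± 61.2 CPM in S38A mitotic libraries (SD, n = 2 each), and the libraries did not overlap, as for 25.7% of all genes in that direction. The log2 difference was 0.58 ± 0.13 (SE, 95% interval 0.32 to 0.84), or 1.49-fold (adjusted p = 0.000963, edgeR). Of all genes tested, 6.14% were called higher in S38D mitotic cells. Leaving out any 1 library gave an adjusted p of 0.000144 to 0.0390 (edgeR). Alignments that were not unique made up 72.4 to 72.5% of all alignments in S38D mitotic and 65.8 to 70.4% in S38A mitotic libraries. Coding reads were 274071 to 298198 in S38D mitotic and 386376 to 440741 in S38A mitotic libraries. Reads outside counted features were 27.9 to 28.3% and 25.6 to 27.5% of uniquely aligned reads. The part of these measures in the difference of Ptprc was not tested.

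In asynchronous cells the same comparison did not pass. Ptprc averaged 1593 ± 193 CPM in S38D and 1396 ± 47.8 CPM in S38A asynchronous libraries (SD, n = 2 each), again with no overlap, as for 23.5% of all genes in that direction. The log2 difference was 0.19 ± 0.12 (SE, 95% interval -0.06 to 0.44, adjusted p = 0.396, edgeR, with 3.71% called higher). The interval reaches 1.35-fold, so the 2 mutants are not shown to be alike in this state.

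**Figure D4:**
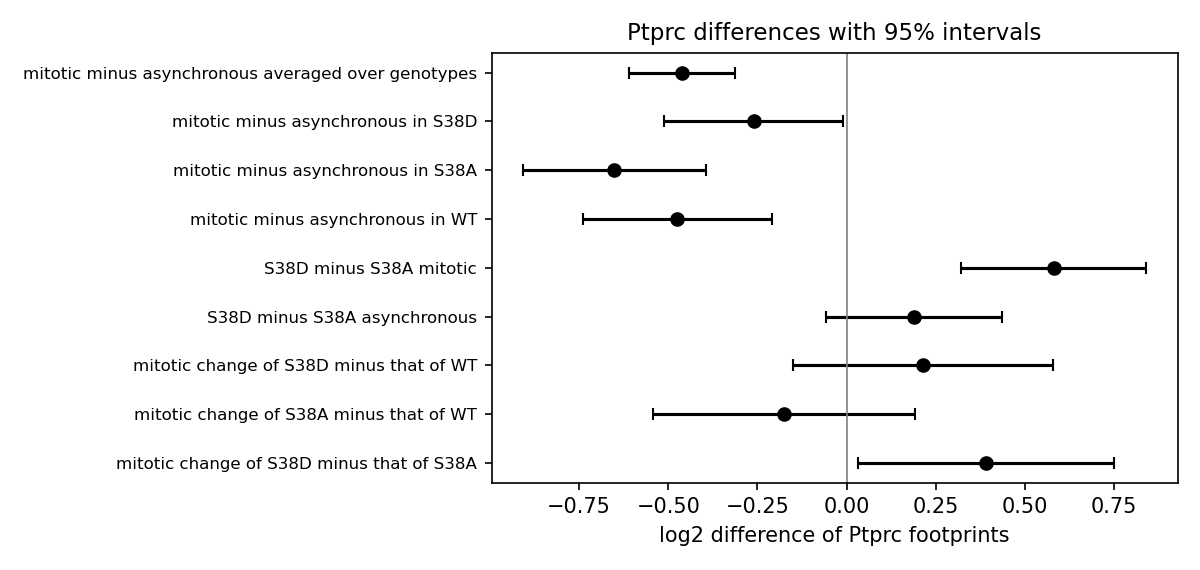
Log2 differences of Ptprc footprints (x axis) for each tested comparison (rows), with 95% intervals from the edgeR fit, not adjusted for the number of genes. The mitotic changes lie below 0, and S38D minus S38A lies above 0 in mitotic cells at 0.58.

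Set against WT, where no test is given, Ptprc differed far less than Ptprcap, and in the other direction in S38D cells. The S38D mean was 1.50-fold the WT mean in mitotic cells, 1329 ± 9.19 against 882 ± 79.9 CPM, and 1.30-fold in asynchronous cells, 1593 ± 193 against 1229 ± 58.7 CPM (SD, n = 2 each). S38D and WT libraries did not overlap in either state, as for 21.5% of genes in mitotic and 22.6% in asynchronous cells in that direction. The S38A libraries overlapped with WT in mitotic cells, where the fitted ratio was 1.01-fold. In asynchronous cells the S38A mean was 1396 ± 47.8 CPM against 1229 ± 58.7 CPM in WT (SD, n = 2 each), without overlap, as for 25.9% of genes, and the fitted ratio was 1.14-fold. Both mutants are set against the same WT libraries here. The order of Ptprc levels in mitotic cells was thus S38D above S38A and WT, which overlapped each other. In asynchronous cells it was S38D, S38A, WT, with no overlap between neighbours, although S38D and S38A did not differ past the threshold there. The counting intervals of the closest S38D and S38A libraries, at 1457 and 1429 CPM, overlapped. So did those of the closest S38A and WT libraries, at 1362 and 1271 CPM. How many genes share this order was not counted.

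Likeness to Ptprc was measured in the same way. Its r cannot be ranked against that of Ptprcap, which mostly follows the split into mutant and WT libraries. The gene most like Ptprc over the 12 libraries, ENSMUSG00000038179.13, had r = 0.879 (log2 CPM), and 0.299% of 6691 genes had r above 0.8. It had 103 and 70.2 CPM in S38D mitotic and 49.0 and 37.1 CPM in S38A mitotic libraries, against 43.6 and 49.2 CPM in WT mitotic libraries. In asynchronous libraries it had 127 and 148 CPM in S38D, 86.1 and 123 CPM in S38A, and 137 and 49.8 CPM in WT. The WT asynchronous values rest on 35 and 15 reads, and the lower lies near the WT mitotic level.

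The 2 genes can also be set against each other within a library, which needs no scaling between libraries. Ptprcap had 0 and 2.65 reads per 1000 Ptprc reads in S38D mitotic and 2.51 and 0 in S38A mitotic libraries, against 114 and 96.7 in WT mitotic libraries. The corresponding values in asynchronous libraries were 2.82 and 1.28 in S38D and 0 and 0 in S38A, against 67.7 and 64.2 in WT. Within WT cells the ratio was higher in both mitotic libraries than in both asynchronous ones, where Ptprc was lower and Ptprcap showed no detectable change. These ratios are not corrected for coding length, so they do not say which gene is the more heavily translated.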

How the data were processed

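For each library the authors deposited raw counts of reads per gene, followed by 5 summary rows, and only the file naming says that coding sequence was counted. The submitters' processing notes give the build as mm10 and list, without roles or parameters, STAR 2.5.3a and Bowtie2 2.3.2 as well as HTSeq 0.9.1, bcl2fastq 2.16.0.10 and DESeq2 1.18.1. Strand use and read collapsing are not given in the sources used here. Per the labels' protocols, cells were harvested in 100 µg/ml cycloheximide, lysates were digested with RNase I and fragments between 27 and 30 nt markers were cloned.

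Both genes were chosen, and all lists drawn up, with earlier results of these data known. The test was the quasi-likelihood F test of edgeR 4.0.16 in R 4.3.3, after TMM scaling and filterByExpr (minimum count 10), with 6 groups of 2 libraries in 1 model and Benjamini-Hochberg adjustment over 6692 genes at 0.05, and the fit was tested on simulated data. SE is the log2 difference over the square root of F. The total degrees of freedom of the test, 69.0 with 12 libraries, come largely from spread shared across genes. Log2 CPM used a prior count of 2. The summary rows stayed out of library sizes: reads outside features were 18.0 to 34.6% and ambiguous reads 0.524 to 0.677% of uniquely aligned reads. A floor of 3 reads corresponds to 5.93 to 11.6 CPM in a single library, without TMM.

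The reference table pairs 0 of the gene IDs with symbols. Gene lists by symbol (CD45 substrates, B cell receptor signalling, phosphatases, splicing regulators, lectins, cell type markers) and neighbouring genes therefore could not be given values, and levels per coding length were not computed. Genes without a name are given by ID: by rule those most like each gene in Pearson's r among genes with a mean CPM of at least 10, and genes with at least 50 WT reads and a mutant mean under 10% of WT. Alternatives were other scalings, filters, DESeq2 1.42.0, a replicate block, only the groups compared, and each library left out in turn.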

Additional observations from a re-analysis of the deposited data

How the results depend on the processing

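The average mitotic fall of Ptprc, its fall in S38A cells and its excess in S38D over S38A mitotic cells kept their direction and passed under every alternative run. DESeq2 gave fewer calls than edgeR for all 13 comparisons across genes, for example 1627 against 2728 genes for the averaged change of state, 342 against 864 for S38D minus S38A in mitotic cells and 128 against 583 in asynchronous cells. Leaving out 1 library moved Ptprc as follows (log2): -0.39 to -0.15 for the mitotic change in S38D, -0.60 to -0.39 for that in WT, -0.061 to 0.14 for S38A minus WT mitotic, 0.26 to 0.51 for S38D minus WT asynchronous and 0.54 to 0.75 for S38D minus WT mitotic. Smaller differences that did not pass or were not tested also moved: 0.070 to 0.31 for S38D minus S38A asynchronous, 0.12 to 0.23 for S38A minus WT asynchronous, and for the difference in mitotic change -0.24 to -0.031 for S38A minus WT and 0.092 to 0.37 for S38D minus WT. The change of Ptprcap between states in WT cells was 0.11 to 0.24. The Ptprcap level as a percent of WT rests on 0 to 3 reads. With the floor of 3 reads set in a single library, in place of over the group, it was at most 11.6% in S38A asynchronous cells. It was 8.55% in S38A mitotic, 12.0% in S38D mitotic and 8.04% in S38D asynchronous cells. In these groups, which held reads, the floor values are not upper limits. Without 1 library the level was 4.89 to 11.6% in S38A asynchronous, 1.30 to 8.55% in S38A mitotic and 1.87 to 12.0% in S38D mitotic cells. In S38D asynchronous cells it was 2.68 to 4.93%. The S38A asynchronous range and the upper ends 8.55% and 12.0% take 0 reads as 3 and are floor values, not measured levels. The labels number replicates 1 and 2 in each group, but same-numbered libraries did not deviate together (r of -0.23 to 0.09 over 15 pairs of groups, across genes). A replicate block changed no call of either gene: the averaged change of Ptprc was -0.46 with it (adjusted p = 9.69e-07, edgeR). DESeq2 gave no adjusted p for Ptprcap between states in WT cells. The alternatives for gene lists and per-length levels were not run.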
